A study of Saccharomyces cerevisiae BY4741 with 25 samples.

Results

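Chromosome ends of budding yeast collected calls of DNA variants at a density several-fold above the rest of the nuclear genome, and these calls rested on fewer reads and lower scores. The calls described here are those lying within 30 kb of either end of the 16 nuclear chromosomes in the lists of variants deposited for 9 genomic DNA libraries. They were chosen by position only, and they number 1496 of 4423 nuclear calls, at 415 of 1698 called positions. The other 2927 nuclear calls, at 1283 positions, served for comparison, and mitochondrial calls were left out.

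Whole-genome sequencing served in this study to find mutations that release the repression of SIR2, the gene of a histone deacetylase that silences chromatin. All libraries are of Saccharomyces cerevisiae BY4741, a laboratory strain. The 8 mutant pools were RRC1 (strain YTT67_alpha25, rrn9 in its title), RRC2 (YTT66_a17, rrn10), RRC3 (YTT66_a19, rrn5), RRC4 (YTT67_alpha5), RRC5 (YTT66_a40, uaf30), RRC6 (YTT66_a296A), RRC7 (YTT66_a33) and RRC8 (YTT66_a44), and the parental pool held YTT66 and YTT67 together. Each mutant pool combined mutant clones from spores of a backcross, of both mating types, grown separately to stationary phase in rich medium and harvested together. Each pool is therefore 1 library, there are no replicate libraries, and how many clones entered a pool is not known here. The labels of RRC4 disagree, since its description names the parental strains and its title and strain a mutant, so it was kept as a mutant pool and values that turn on it are also given without it. The other 16 samples, of chromatin immunoprecipitation, were not analysed here. Library depth, taken as the median reads at other nuclear calls with a score of at least 200, was 59.5 to 71.5 reads in 8 libraries and 42 in RRC6. Because the libraries were amplified, intervals on read counts cover counting error only.

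Yeast chromosomes end in short telomeric repeats, next to which lie the X and Y' elements and then families of genes held in near-identical copies, among them the flocculins, the seripauperins, the COS genes and the helicase frames of the Y' elements. Sir proteins bind there and at the silent mating-type cassettes and repress transcription. Reads from near-identical copies or from repeats within a gene cannot always be placed at 1 site, and the lists do not say how such reads were treated. In a pool of backcrossed clones, a variant common to both parents is carried by all reads, while an unlinked variant that 1 parent brought is carried by some.

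Insertions and deletions made up 203 of the end calls, at 58 combinations of position and alleles, and a few are printed because they show the kinds of sequence involved. Alleles are given as in the lists, on the strand of the deposited files, reference before alternate, with the inserted or deleted bases in capitals. In YMR317W (chromosome 13, position 908234) a unit of 36 bases was deleted in the lists of RRC1, RRC2 and the parental pool, on 33 to 50% of 9 to 20 reads.
YMR317W reference: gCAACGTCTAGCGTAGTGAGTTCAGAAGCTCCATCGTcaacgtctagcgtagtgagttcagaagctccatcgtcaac
YMR317W alternate: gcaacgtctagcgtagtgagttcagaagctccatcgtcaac
In the run of T after position 17534 of chromosome 8, within YHL041W, 8 lists held longer runs than the reference, among other alleles.
YHL041W reference: attttttttttt
YHL041W alternate: aTttttttttttt
Beside YDL241W (chromosome 4, position 20525) a TA repeat was shorter by 2 bases in 6 lists, on 15 to 36% of reads.
YDL241W reference: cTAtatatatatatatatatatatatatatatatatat
YDL241W alternate: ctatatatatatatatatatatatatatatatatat
In CSS1 (YIL169C, chromosome 9, position 23185) all 9 lists carried an inserted base on all of 4 to 13 reads.
CSS1 reference: cg
CSS1 alternate: cGg
At the outermost bases the lists held changes of short repeats, as at position 9 of chromosome 7, in 4 lists on 2 to 4 reads, and at position 90 of chromosome 15, in 4 lists on 2 to 5 reads.
Chromosome 7 reference: acac
Chromosome 7 alternate: aCACcac
Chromosome 15 reference: cCCAc
Chromosome 15 alternate: cc
The longest deletion was that of YMR317W and the longest insertion held 7 bases. Of the 58, 32 lay between genes, 13 were annotated as frameshifts and 6 had the same alleles in all 9 lists. No flanking sequence is shown, because no genome was used.

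The 32 ends cover 960 kb, which is 7.95% of nuclear bases, and held 28.4 to 41.8% of the nuclear calls of a library. At the ends there were 17.9, 18.5, 16.9, 18.1, 17.3, 13.9, 17.4 and 16.6 calls per 100 kb in RRC1 to RRC8 and 19.3 in the parental pool. In the rest of the nuclear genome there were 2.94, 2.83, 3.02, 3.78, 2.94, 3.02, 2.93 and 2.57 calls per 100 kb in RRC1 to RRC8 and 2.32 in the parental pool. The ends were the denser in every library and the values of the 2 regions did not overlap. The density was 5.94-fold higher at the ends (log2 2.57 ± 0.25, SD over libraries, n = 9), from 4.60-fold in RRC6 to 8.30-fold in the parental pool. A two-sided exact sign-flip permutation test over libraries gave p = 0.00391, the smallest that 9 libraries allow, and 0.00912 after Benjamini-Hochberg adjustment over 7 results. The libraries share their parental strains and many called positions, so this p covers the spread between libraries only. The flocculin genes FLO9 and FLO1 decide part of this value: without them, an alternative chosen after seeing the data, the ends were 2.87-fold (RRC4) to 4.26-fold (parental pool) denser.

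**Figure D1:**
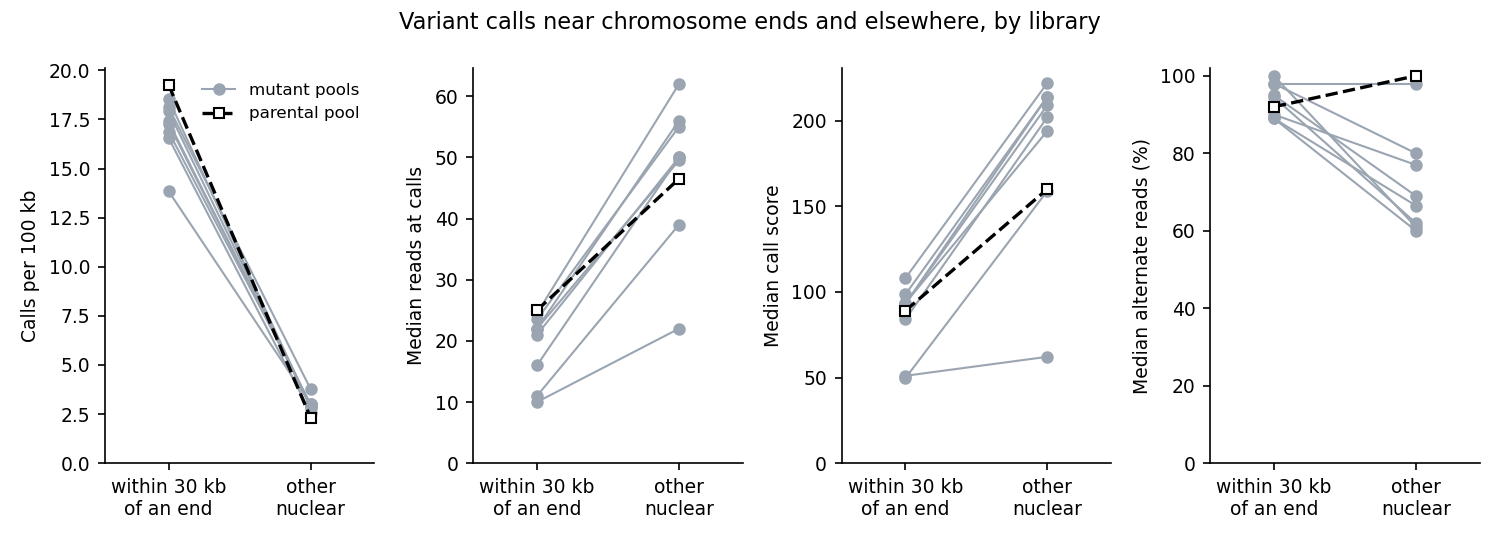
Each line is 1 library (grey, the 8 mutant pools; black dashed, the parental pool) and joins its value within 30 kb of chromosome ends to its value at other nuclear positions. Density (calls per 100 kb) was higher at the ends in 9 of 9 libraries, median reads and median call score were lower in 9 of 9, and the median percent of alternate reads was higher in 7.

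Calls at the ends were covered by fewer reads. Median reads at end calls were 23.5, 24.5, 11, 22, 21, 10, 16 and 22 in RRC1 to RRC8 and 25 in the parental pool, against 55, 62, 39, 56, 50, 22, 50 and 49.5 in RRC1 to RRC8 and 46.5 in the parental pool at other nuclear calls. The median was lower at the ends by 12 reads in RRC6 and by 37.5 reads in RRC2, and by values between these in the other libraries. The mean difference was -28.3 ± 7.69 reads (SD, n = 9, exact sign-flip permutation test, adjusted p = 0.00912). It was -16.6 reads without FLO9 and FLO1 and -12.7 reads with a window of 20 kb, each lower at the ends and passing at the same adjusted p of the exact sign-flip permutation test. Without the flocculin genes RRC1 had medians of 48 reads at the ends and 55 elsewhere. Over all libraries, fewer than 10 reads covered 468 end calls (31.3%) and 385 other calls (13.2%), against 19.3% of all nuclear calls. The call score was lower as well, by -97.4 ± 35.8 in the median (SD, n = 9, lower in 9 of 9 libraries, exact sign-flip permutation test, adjusted p = 0.00912), with a gap of only -11.1 in RRC6, the shallowest library. The difference of mean scores was smaller, at -40.0, and the difference of medians was -48.4 with a window of 20 kb. A score of at least 200 was reached by 338 end calls (22.6%) and 1462 other calls (49.9%), against 40.7% of all nuclear calls.

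The alternate allele took a larger median percent of the reads at end calls in most libraries. The median percent at end calls was 95, 89, 94.5, 89, 90, 100, 98 and 98% in RRC1 to RRC8 and 92% in the parental pool, against 69, 66.5, 62, 60, 77, 61, 80 and 98% in RRC1 to RRC8 and 100% in the parental pool at other calls. It was higher at the ends in 7 mutant pools, equal in RRC8 and lower in the parental pool. The mean difference of 19.1 ± 15.3 percentage points passed the test (SD, n = 9, exact sign-flip permutation test, adjusted p = 0.0219). The difference of means, in place of medians, was 5.30 points (exact sign-flip permutation test, adjusted p = 0.0164). The difference of medians was 2.50 points without FLO9 and FLO1 and did not pass (exact sign-flip permutation test, adjusted p = 0.723), and -2.39 points with a window of 20 kb. At least 90% alternate reads, called near-fixed here, were found at 791 end calls (52.9%) and 1381 other calls (47.2%), against 49.1% of all nuclear calls. The difference within libraries, 5.04 ± 7.01 points (SD, n = 9), did not pass (exact sign-flip permutation test, adjusted p = 0.0912). Without the parental pool it was 6.76 points and passed (exact sign-flip permutation test, adjusted p = 0.0182), while without FLO9 and FLO1 it was -2.10 points. Fewer than 10 reads covered 289 of the near-fixed end calls (36.5%) and 188 of the near-fixed other calls (13.6%). Among calls with at least 10 reads the near-fixed difference was 1.00 point (exact sign-flip permutation test, adjusted p = 0.719). The percent also differed by whether the parental list held the call, by position and alleles. Mutant-pool calls in that list had a median of 100% in both regions, with 62.5% near-fixed at the ends and 75.9% elsewhere. Those absent from it had medians of 50% at the ends and 45% elsewhere, with 32.4% and 14.0% near-fixed. This split was not tested.

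Density was not even along the outer 30 kb. In steps of 5 kb from the end inwards, the libraries averaged 11.7, 15.6, 12.2, 14.7, 10.3 and 39.4 calls per 100 kb. The step from 25 to 30 kb stood apart, with 567 calls at 122 positions, of which 487 calls lay in FLO9 or FLO1. The next step outside the window, 30 to 35 kb, averaged 18.1 calls per 100 kb, and 118 of its 261 calls lay in the cell-wall gene DAN4 and 89 in retrotransposon reading frames. From 35 to 60 kb the density was 2.71 to 4.86 calls per 100 kb. Just inside the boundary lay a position between genes (chromosome 8, 532813), called in all 9 lists at 33 to 41%, and HPF1 (chromosome 15, 29144), called in all 9 at 26 to 48%. Just outside lay 3 positions of YBL100W-A on chromosome 2 (30012, 30050 and 30210), called in all 9 lists at a median of 98 to 100%.

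**Figure D2:**
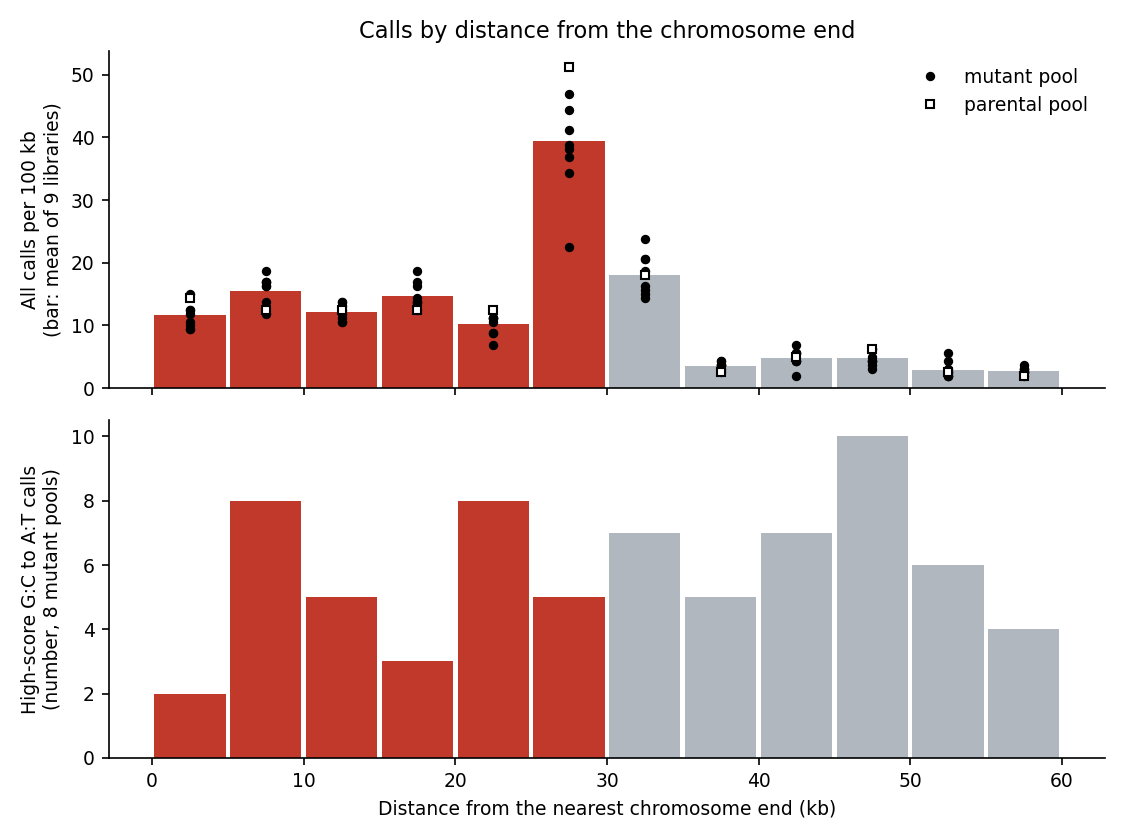
Upper panel: calls per 100 kb (y axis) by distance from the nearest chromosome end in 5 kb steps (x axis); bars are means of 9 libraries, filled circles mutant pools, open squares the parental pool, and the red bars are within 30 kb. Lower panel: G:C to A:T calls of the set with high scores in the 8 mutant pools (y axis, number). The 25 to 30 kb step reached 39.4 calls per 100 kb, while the G:C to A:T calls numbered 2 to 10 in each step.

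The ends differed widely among themselves. The left end of chromosome 1, which carries FLO9, held 562 calls (37.6% of all end calls) at 101 positions, and the right end of the same chromosome, which carries FLO1, held 129 calls at 43 positions. The right end of chromosome 13 followed with 119 calls and the left end of chromosome 2 with 107. The median end had 7.5 called positions, 20 of the 32 ends had fewer than 10, and the right ends of chromosomes 7 and 15 had 1 each. Each of these right ends held 1 call over all 9 lists. The higher density therefore belongs to the ends together and not to each end. Without the left end of chromosome 1 it was 3.84-fold. A position called in all 9 lists was present at 17 ends and at none of the other 15.

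**Figure D3:**
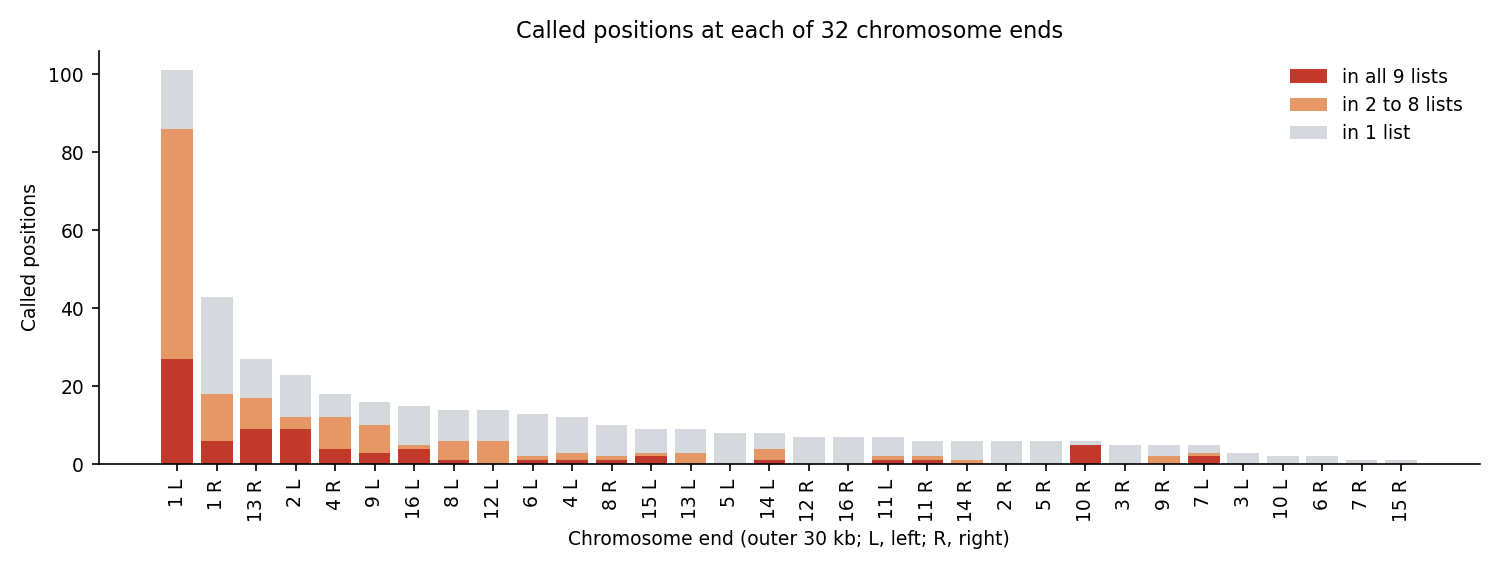
Called positions (y axis) within 30 kb of each of the 32 chromosome ends (x axis), stacked by the number of lists that hold a call there: all 9 (red), 2 to 8 (orange) or 1 (grey). The left end of chromosome 1 has 101 positions and the median end 7.5.

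Many end positions were called in some but not all libraries. Of the 415 end positions, 211 (50.8%) were in 1 list, 126 (30.4%) in 2 to 8 lists and 78 (18.8%) in all 9. Of the 1283 other positions, 983 (76.6%) were in 1 list, 154 (12.0%) in 2 to 8 and 146 (11.4%) in all 9, against 70.3% in 1 list and 13.2% in all 9 for all nuclear positions. Calls in 1 list had a median score of 12.3 at the ends and 182 elsewhere, and G:C to A:T changes made up 33.2% of them at the ends and 62.5% elsewhere. More than 1 alternate allele was listed at 74 end calls (4.95%) and 101 other calls (3.45%), against 3.96% of all nuclear calls. Recurrence classes, allele numbers and kinds of change are descriptions and were not tested.

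Calls absent from the parental list, by position and alleles, were a smaller share at the ends. In the 8 mutant pools 410 of 1311 end calls and 1293 of 2669 other calls were absent from it, against 42.8% of all nuclear calls of these pools. The share was lower at the ends in 8 of 8 pools, by -8.97 points in RRC8 to -26.4 points in RRC4. The mean difference was -16.6 ± 5.25 points (SD, n = 8, exact sign-flip permutation test, p = 0.00781, the smallest that 8 libraries allow, adjusted p = 0.0137), and -15.1 points without RRC4. With a window of 10 kb it was 0.77 points and did not pass. A smaller share was not a lower density. Mutant-pool calls that the parental list lacked were still denser at the ends in 8 of 8 pools, by 2.57-fold (RRC4) to 4.96-fold (RRC8). Their density ratio over the pools was 3.73-fold (n = 8, exact sign-flip permutation test, adjusted p = 0.0137). This counts calls of any score. Their median score was 22.15 at the ends and 97 elsewhere. A score of at least 200 was reached by 46 of the 410 (11.2%) and 499 of the 1293 (38.6%), against 40.7% of all nuclear calls. Whether such calls were denser at the ends at that score was not tested. At 97 of the 410 end calls (23.7%) and 112 of the 1293 other calls (8.66%) the parental list held another allele at the same position.

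FLO9 (YAL063C), the gene of a cell-wall flocculin whose coding sequence holds internal repeats, accounted for 476 end calls (31.8%) at 81 positions between 25340 and 27129 of chromosome 1. The number of FLO9 calls was 59, 57, 51, 59, 50, 32, 52 and 46 in RRC1 to RRC8 and 70 in the parental pool. Median reads at them were 14, 19, 10, 14, 10.5, 7, 5 and 9.5 in RRC1 to RRC8 and 19.5 in the parental pool. This was 0.079 (RRC7) to 0.27 (RRC2) of the library depth in the mutant pools and 0.31 in the parental pool. Of 98 combinations of position and alleles, 74 were synonymous, 40 of them at threonine codons, and 24 were missense. FLO1 (YAR050W), the dominant flocculin gene at the other end of the chromosome, had 101 calls at 33 positions, with 27 of 38 combinations synonymous. Its median reads ranged from 4 in RRC6 to 37 in RRC5 among the mutant pools and were 9.5 in the parental pool. Of the flocculin positions, 25 in FLO9 and 4 in FLO1 were in all 9 lists, and none of their calls was in the G:C to A:T set given further on.

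Of the other genes with the most called positions, YMR317W, an uncharacterised frame with internal repeats, had 106 calls at 22 positions between 908174 and 908484 of chromosome 13. Its median percent was 47 to 80% over the mutant pools and 76.5% in the parental pool, and its calls included 9 positions in all 9 lists. CSS1 had 56 calls at 14 positions and YDR544C 59 calls at 12 positions. Median reads in YDR544C were 2 to 6.5 in the mutant pools and 8 in the parental pool, at 100% alternate reads, so few reads stood behind these near-fixed calls. Among Y' helicase frames, YBL113C had 15 calls at 10 positions, YHL050C 15 at 5, YLL067C 11 at 5 and YEL077C 5 at 5. PKC1, the protein kinase C of the cell wall integrity pathway, was unlike these, with 5 positions in all 9 lists, 51 to 86 median reads in the mutant pools and 87 in the parental pool, and 98 to 100% alternate reads.

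**Figure D4:**
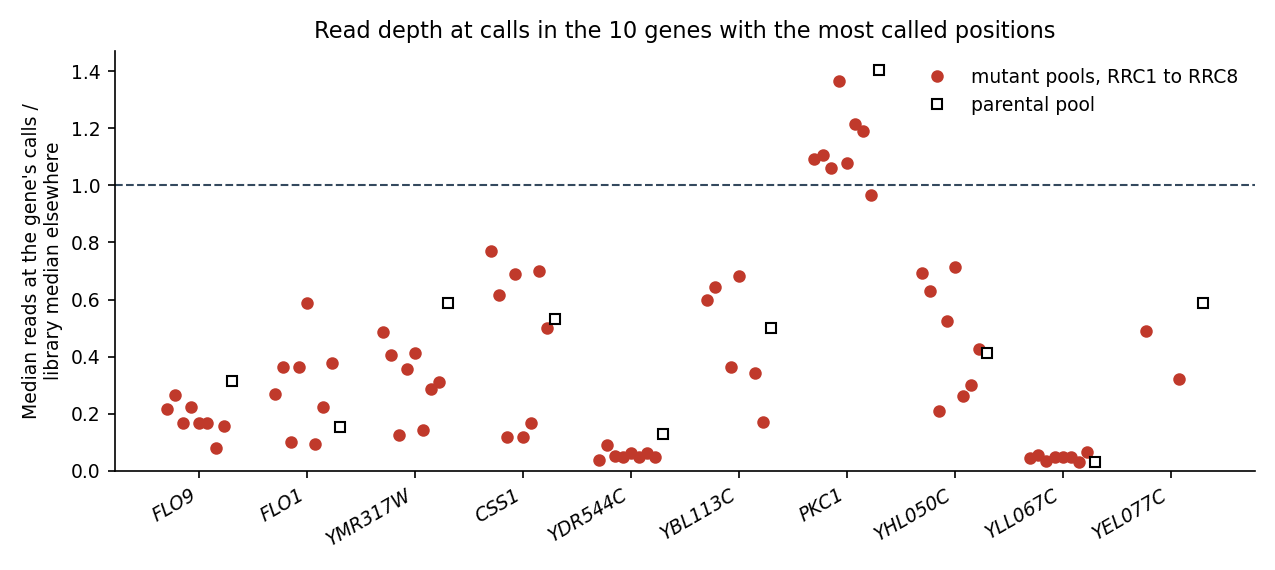
Median reads at the calls of each of the 10 end genes with the most called positions, divided by the library's median reads at other nuclear calls with a score of at least 200 (y axis; dashed line, equal depth); red circles are mutant pools in the order RRC1 to RRC8 and open squares the parental pool, and a library with no call in a gene has no point. FLO9 lies between 0.079 and 0.31 and PKC1 between 0.97 and 1.40.

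Positions called in all 9 lists were sorted by their percent of alternate reads. Of the 78 at the ends, 47 (60.3%) had at least 90% alternate reads in every list, at a median depth of 0.40 of the library's, while 116 of the 146 elsewhere (79.5%) did so at 0.87. Another 24 at the ends, at a median depth of 0.33, and 23 elsewhere, at 0.70, were neither at least 90% in every list nor under 60% in every list. Their depths overlapped those of the positions with at least 90% in every list, at the ends and elsewhere. Alleles with a score of at least 200 in every list numbered 14 of 60 at the ends and 78 of 124 elsewhere. The protein-changing ones at the ends were A877S in FLO9 (position 25340, 29 to 77 reads), I866L in PKC1 (chromosome 2, position 15101, 67 to 89 reads) and S65C in YBL109W (chromosome 2, position 5983, 36 to 77 reads), at 95 to 100% of reads. The other 4 PKC1 changes were synonymous, and a pair lay beside PAU9, a seripauperin gene, at 60 to 96 reads. The parental list is among the 9, so all 14 are in it by definition.

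At 7 end positions the alternate allele stayed under 60% in all 9 lists, and their depth, as the median over lists, was 1.46 to 2.06 times the library's. The limit of 60% bears on this: position 25623 in FLO9, at 33 to 60% with a median depth of 0.25, was kept out by RRC6 alone, where 3 of 5 reads were alternate. Position 13937 of chromosome 4, between genes, at 41 to 64% with a median depth of 1.43, was kept out by RRC4 alone. In RRC4, 52 of its 81 reads were alternate. MPH3, an alpha-glucoside transporter gene with a near-identical copy, MPH2, showed T581N (chromosome 10, position 738075) at 39, 51, 39, 48, 44, 52, 54 and 44% of reads in RRC1, RRC2, RRC3, RRC4, RRC5, RRC6, RRC7 and RRC8, and at 52% in the parental pool. Its reads numbered 71 to 144, and the pools overlapped the parental value. A synonymous change at T821 in HPF1, a cell-wall mannoprotein gene, stood at 31 to 48% in the mutant pools and 26% in the parental pool, and its depth in RRC6 was 0.83 of the library's. The position 12416 of chromosome 6, between genes, stood at 41 to 50% on 94 to 153 reads. Elsewhere in the nuclear genome 7 positions were likewise under 60% in all 9 lists, at 0.39 to 1.93 times the library's depth.

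**Figure D5:**
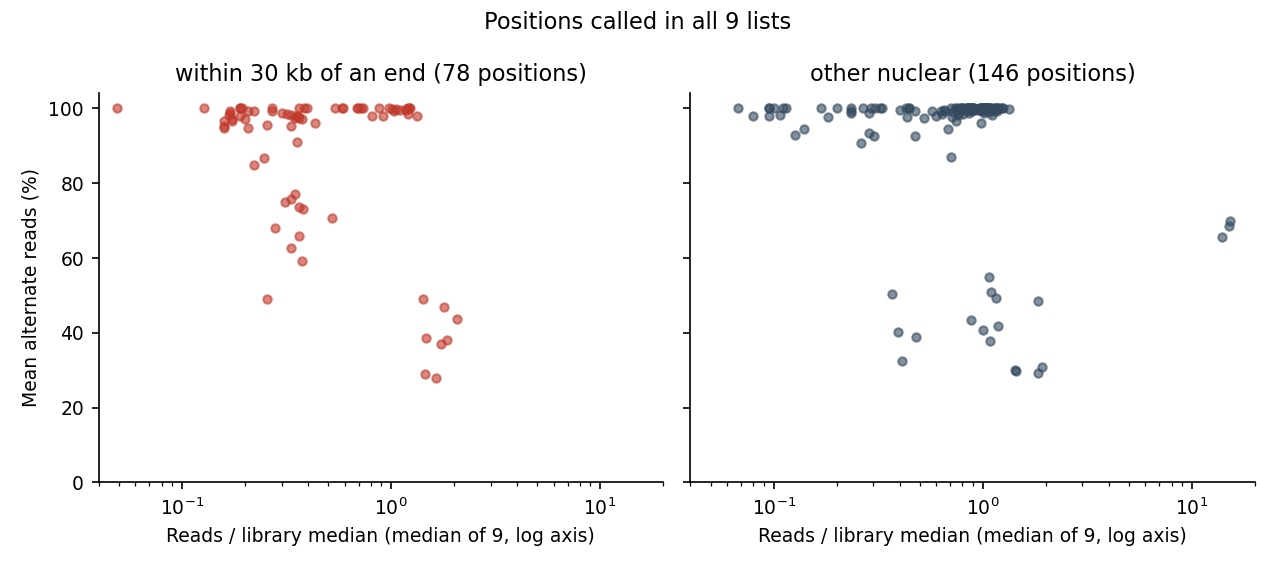
Positions called in all 9 lists, within 30 kb of an end (left, 78) and elsewhere (right, 146): mean percent of alternate reads over 9 lists (y axis) against reads divided by the library's depth, median of 9 (x axis, log scale). The 7 end positions under 60% in every list lie at 1.46 to 2.06, and 3 positions elsewhere lie at 14.0 to 15.3.

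Protein-changing, near-fixed calls were few among mutant-pool calls that the parental list lacked and that had 10 reads or more. They numbered 16 of 268 such calls at the ends (5.97%) and 42 of 1081 elsewhere (3.89%), against 4.3% of all such nuclear calls, and this was not tested. The 16 lay in COS5, FLO9 and YHL041W, where the parental list held another set of alleles at the same position. COS5, of a conserved family of subtelomeric membrane proteins, had P50R (chromosome 10, position 743851) on 100% of 8 to 32 reads in the 8 mutant pools and on 100% of 37 reads in the parental pool, where, as in RRC2, a further allele was listed. R313K in FLO9 (position 27031) was on 89 to 100% of 2 to 19 reads in the mutant pools. In the parental pool all 18 reads were alternate, with a further allele listed. Where a further allele is listed, here and in COS5, the percent is not split between alleles. At the T run of YHL041W, alternate reads made up 88 to 100% in 7 mutant pools and 93% of 63 reads in the parental pool. The scores were 8.17 to 31.5. Each of these lists held insertions of 1 and 2 bases, the parental list also 1 of 3 bases, and the percent is not split between alleles.

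G:C to A:T changes of high score that lay away from parental calls were compared with the share of bases at the ends. To enter this set, which was defined with earlier results known, a mutant-pool call needed a score of 200 or more at a position without any parental call and with a call in no more than 1 further list. The set holds 457 calls, 11.5% of the nuclear calls of the 8 pools. The ratio of the set's density at the ends to its density at other nuclear bases was 0.84. At the ends lay 31 of 457 (6.78%, exact Clopper-Pearson 95% interval 4.66 to 9.49%), where 7.95% of bases lie (two-sided exact binomial test over calls, adjusted p = 0.388). This test takes calls as independent, although 155 of the 457 came from RRC4. It also counts all bases, while a score of at least 200 was reached by 22.6% of end calls and 49.9% of other calls. The ratio therefore cannot tell a density of changes from how often such a score was reached. Without RRC4, whose labels disagree, the ratio was 1.05 (two-sided exact binomial test, adjusted p = 0.831). With each pool weighted equally, an alternative chosen after seeing the data, the mean ratio was 1.41 (exact sign-flip permutation test over 8 pools, adjusted p = 0.852), and without RRC6, which holds 7 calls of the set, 0.84 (exact sign-flip permutation test, adjusted p = 0.312). Neither a higher nor a lower density of this set at the ends was detected. By pool, 7 of 74 calls lay at the ends in RRC1, 2 of 60 in RRC2, 1 of 25 in RRC3, 6 of 155 in RRC4, 3 of 46 in RRC5, 3 of 7 in RRC6, 6 of 53 in RRC7 and 3 of 37 in RRC8.

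The 31 calls had 55 to 103 reads, with a median of 74 against 69.5 for the 426 calls of the set elsewhere. The same score limit applied to both. None of the 31 was near-fixed, against 9 of the 426 elsewhere. Their alternate reads averaged 49.7 ± 10.1% at the ends and 53.6 ± 11.2% elsewhere (SD over 31 and 426 calls), and 20 of 31 (64.5%) at the ends and 108 of 426 (25.4%) elsewhere lay outside coding sequence. Among all nuclear calls, 995 at the ends (66.5%) and 1736 elsewhere (59.3%) lay in coding sequence. The share of coding bases in each region is not given here, and the contrast in the set was not tested. The 8 protein-changing calls of the set at the ends each stood in 1 pool. In RRC5, RPD3, which encodes a histone deacetylase, carried S101N at 41% of 89 reads (exact 95% interval 31.2 to 52.5%). PAU20 and PAU3, seripauperin genes, had A48V in RRC1 on 66% of 62 reads and T26I in RRC4 on 41% of 84 reads. MAL32, a maltase gene, had A144V in RRC1 on 43% of 74 reads. DAK2, a dihydroxyacetone kinase gene, had P366S in RRC8 on 56% of 73 reads. The others were R115C in RMD8 in RRC2 (42% of 78 reads), G24R in YAR064W in RRC1 (63% of 77 reads) and C493Y in YBL113C in RRC1 (46% of 103 reads). The synonymous ones lay in ADY3, a gene of spore formation, in RRC7, in DSE4, a glucanase gene, in RRC4, and in TOG1 (YER184C), a transcription factor gene, in RRC3. Calls beside genes lay next to KRR1, of ribosome assembly, in RRC5, SAM3, an S-adenosylmethionine permease gene, in RRC4, CSS3 in RRC2 and YGL258W-A in RRC7.

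Of 395 loci of the RefSeq table within 30 kb of an end, 61 (15.4%) had a call in or beside them. Among the gene families of the ends, none of which was tested against this share, calls lay in or beside 2 of 3 flocculin genes (577 calls), 8 of 24 Y' helicase frames (54 calls), 5 of 19 seripauperin and related genes (22 calls), 2 of 11 COS genes (21 calls) and 3 of 13 genes of maltose and sucrose use (23 calls). Calls lay in or beside 2 of 8 hexose transporter genes, HXT17 and HXT9 (3 calls), 2 of 7 iron uptake genes, ARN2 and FIT1 (3 calls), and 3 of 8 genes of thiamine and vitamin B6 synthesis, SNO3, SNZ3 and THI13 (6 calls). None of 6 aryl-alcohol dehydrogenase genes had a call. These counts repeat positions across lists: 18 of the 22 seripauperin calls were a pair of adjacent positions beside PAU9, and 18 of the 23 maltose and sucrose calls a pair of positions in or beside MPH3. A score of at least 200 was reached by 73 of 577 flocculin calls and 4 of 54 Y' helicase calls, against the 22.6% of all end calls. In the silent mating-type cassettes, which the Sir proteins repress, 1 call was listed, E122D in HMLALPHA1 in RRC5, on 50% of 4 reads with a score of 4.77. MPH2 had calls in 4 lists on 3 to 5 reads. The outermost 500 bases of the ends held 74 calls at 31 positions, and positions called in all 9 lists there were 214 of chromosome 7, 457 of chromosome 11 in YKL225W, and 666556 of chromosome 11.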

How the data were processed

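Genomic DNA of 8 mutant pools and 1 parental pool was sequenced, and the deposited lists of variants were used. Per the file headers, each row carries a score (named MapQ), the read count at the position and the percent of alternate reads, which the authors deposited. Per the submitters' processing notes, Bowtie 1.0.0, SAMtools 0.1.19 and MACS2 were named, with no role stated. The sources used here give no caller, filters, genome build or rule for reads with several matches, and positions without a call carry no depth.

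Calls within 30 kb of an end were set against other nuclear calls within each library, with chromosome lengths fixed by the choice of the regions. Differences were tested by two-sided exact sign-flip permutation over libraries (512 sign patterns for 9 libraries) and the G:C to A:T set by an exact binomial test, with Benjamini-Hochberg adjustment over 7 results. The density, depth and near-fixed differences and their sign-flip test were also run on simulated data. The simulated libraries were independent, unlike the real lists, which share strains and positions. The binomial test was not run on simulated data. Single-call intervals are exact (Clopper-Pearson, 95%), with alternate reads recovered as the fewest that give the deposited percent, which is rounded down at all 3148 nuclear calls with up to 60 reads. Of 72 loci with an end call, 62 were in the RefSeq table of assembly R64, used for gene names and for which family members lie near ends. Named genes were family members with an end call, the 10 with the most called positions, those with near-fixed protein changes absent from the parental list in at least 2 pools, those in the G:C to A:T set, and those with protein changes in all 9 lists at a score of at least 200. Others (MPH3 and HPF1 positions, YDL241W, and DAN4 and YBL100W-A outside the window) were added once their values were known. The members, families and lists were chosen with earlier results of these data known. Python 3.11.15, NumPy 2.4.6, pandas 2.3.3, SciPy 1.17.1 and Matplotlib 3.10.9 were used.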

Additional observations from a re-analysis of the deposited data

How the results depend on the processing

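Of 132 alternatives over the 7 results, 112 kept direction and side of the threshold, 7 lost the call, 5 gained one and 8 changed direction, and the cause was not tested. Keeping 1 value per position changed nothing, since no list repeats a position, and is not counted. The density ratio kept its call in all 20 (2.64-fold to 6.93-fold). With a 10 kb window the near-fixed difference was 9.01 points (passing) and the pool-specific one 0.77. With 20 kb the percent difference was -2.39, the near-fixed one -0.75, the depth one -12.7 and the pool-specific one -7.55. With 50 kb the percent difference was 8.06 and the near-fixed one 0.21, and with at least 10 reads 11.1 and 1.00 (none passing). Differences of means were 5.30 points in percent and -40.0 in score. With a score of at least 200 the differences were -5.50 reads, -0.33 in score and 4.22 points in percent (none passing) and 11.4 points near-fixed (passing). In the shortened lists the score difference was -33.5 (not passing) and the near-fixed one 20.4, the percent one 35 and the pool-specific one -31.1 (passing). Chosen after seeing the data, leaving out FLO9 and FLO1 gave 2.50 (percent, not passing), -2.10 (near-fixed), -16.6 reads and -10.6 (pool-specific), positions in all 9 lists gave -0.56 (percent) and -12.7 (near-fixed, exact sign-flip permutation test, adjusted p = 0.00684), leaving out retrotransposon frames gave 6.64 (near-fixed, passing), and the G:C to A:T ratio as a mean over pools was 1.41.

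Leaving out 1 library at a time gave log2 density ratios of 2.51 to 2.62, depth differences of -30.4 to -27.2 reads, score differences of -108.2 to -94.4, percent differences of 16.6 to 22.5, near-fixed differences of 3.94 to 6.76 (the last without the parental pool, passing), pool-specific differences of -17.6 to -15.1 and G:C to A:T ratios of 0.76 to 1.05 (the last without RRC4). Retrotransposon genes were to be left out by the RefSeq table, which marks none, so 78 loci were taken by the shape of paired reading frames. End and other calls were paired within each library. No paired analysis was possible because the labels give shared replicate numbers to the chromatin immunoprecipitation samples only, which were not analysed here, so libraries have no replicate block. Few reads limit single end calls: at 2 to 10 reads, 100% alternate reads do not tell near-fixed from lower shares.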
